A study of Mus musculus with 10 samples.

Results

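Txnip, its antisense neighbour Gm15441, the 4 alpha-arrestin relatives Arrdc1 to Arrdc4 and the thioredoxins Txn1 and Txn2 were followed in mouse liver. These 8 genes were chosen by symbol from the 24421 genes listed, with the difference between the groups already known, so that difference is described for them and not tested. Hepatic poly(A) RNA of 10 male C57BL/6 mice, fed ad lib and 21 weeks old, was sequenced, with 1 library from each mouse. Mice of the Chow group (n = 5) were kept on the standard diet. Those of the TM5614 group (n = 5) had TM5614 in their food for 10 days, at 20 mg/kg/day. This drug, a small molecule taken by mouth, inhibits PAI-1, the main inhibitor of the plasminogen activators. All 10 mice were wild type.

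Thioredoxins are small proteins that reduce disulphide bonds in other proteins and are themselves recharged by thioredoxin reductases. Txnip encodes the thioredoxin-interacting protein, an alpha-arrestin that binds reduced thioredoxin and also promotes the uptake of glucose transporters from the cell surface. Its transcription is known to follow glucose through the MLX partners MondoA (Mlxip) and ChREBP (Mlxipl), and Arrdc4 is known to share that control. The other alpha-arrestins are adaptors that bring ubiquitin ligases of the Nedd4 family to membrane proteins. Gm15441 is a long noncoding RNA read from the opposite strand of the Txnip locus, and it is known in liver as a target of PPAR-alpha, the nuclear receptor of fatty acid oxidation, and as a regulator of Txnip and the NLRP3 inflammasome.

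The reading of both strands at this locus is what limits the values of the pair, so its layout comes first. In the GENCODE M21 annotation of GRCm38 (the assembly that mm10 names), the protein-coding gene Txnip (ENSMUSG00000038393.14) lies on the plus strand at chr3:96557957-96561883. Gm15441 (ENSMUSG00000074398.5, type antisense) lies on the minus strand at chr3:96555765-96566801 and so spans the whole of Txnip. Of its 2 annotated transcripts, the longer one starts 4918 bases past the end of Txnip. Its exons share 606 bases with those of Txnip, in a block of 441 bases at the start of Txnip and a block of 165 bases in an internal Txnip exon. The shared bases are 19.4% of all exon bases of Txnip and 36.2% of those of Gm15441. The shorter transcript starts 142 bases before Txnip and shares no exon base with it, and its first exon lies inside the Txnip promoter, at chr3:96557756-96557815. The internal block that both genes read, chr3:96559678-96559842, is shown as an example of sequence from which a read fits either gene unless its strand is used. It is given on the strand of Txnip, from the GENCODE M21 transcripts.

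Shared exon: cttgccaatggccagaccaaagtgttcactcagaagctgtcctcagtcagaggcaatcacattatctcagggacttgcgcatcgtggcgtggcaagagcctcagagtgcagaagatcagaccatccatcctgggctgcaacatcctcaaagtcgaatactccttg

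**Figure D1:**
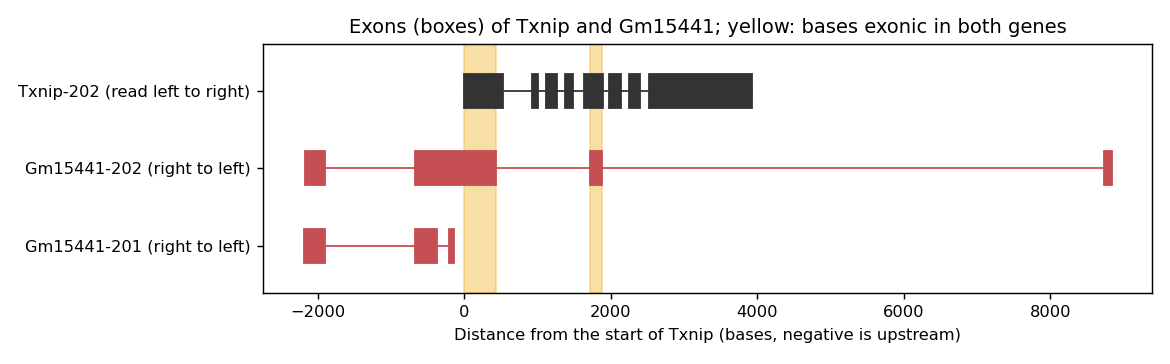
Exons of the main Txnip transcript and of both Gm15441 transcripts, drawn to scale as boxes against the distance in bases from the start of Txnip, with the shared exon bases in yellow. The 441-base block lies at the start of Txnip and the 165-base block in an internal exon, and the shorter Gm15441 transcript lies wholly upstream of Txnip.

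Promoters of RefSeq genes on GRCm38.p6, from 250 bases before to 50 after each start, matched 7 of the 8 genes; Gm15441 had no entry. Stretches of the Txnip and Arrdc4 promoters are shown because these are the glucose-responsive members, and the letters of the searched motifs are in capitals. Both strands were searched for the carbohydrate response element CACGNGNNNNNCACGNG, the E-box CACGTG, the CCAAT box CCAAT and the FoxO element GTAAACA. The Txnip stretch is chr3:96557812-96557896 on the plus strand and the Arrdc4 stretch chr7:68749399-68749453 on the minus strand, both written in the direction of the gene.

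Txnip: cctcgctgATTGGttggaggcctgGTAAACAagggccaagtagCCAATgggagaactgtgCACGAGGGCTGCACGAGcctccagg

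Arrdc4: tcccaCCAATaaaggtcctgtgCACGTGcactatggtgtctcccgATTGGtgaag

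The Txnip promoter held the carbohydrate response element at -85 to -69 from the start, letters found in 0.0487% of all 32851 promoters. It also held a FoxO element at -121 to -115, against 3.65% of all promoters, and a CCAAT box on each strand. The Arrdc4 promoter held an E-box at -193 to -188, against 7.15% of all promoters, and 6 CCAAT boxes, of which 2 stand in the stretch shown. At least 1 CCAAT box stood in 37.4% of all promoters. Among the other members, Arrdc2 had 3 CCAAT boxes and Txn2 had 1, 2 of the 3 Arrdc3 promoters had 1 each, and none of the 4 motifs stood in the windows of Arrdc1 or Txn1.

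Total counts ranged from 6398335 to 10874955 per library, and 11092 genes had counts high enough to be tested. Levels are given as CPM, counts scaled to library size and by TMM factors. Markers of liver tissue were high in both groups, with the 8 hepatocyte markers summing to 108181 to 119846 CPM in Chow libraries and 93835 to 109961 in TM5614 libraries. All 10 markers of Kupffer cells, the resident macrophages, had lower estimates in TM5614, with summed levels of 83.4 to 264 CPM in Chow and 83.2 to 178 in TM5614. Of the 38 marker genes tested over all cell types, edgeR called 0, beside 4.50% of all tested genes. At an unadjusted p under 0.05 in edgeR there were 6. DESeq2 called 1 and limma-voom 2. The 12 skeletal muscle markers summed to 0.644 to 1.45 CPM in Chow and to 1.29 to 4050 in TM5614, where replicate 2 held the highest value and replicate 3 the next, 66.4. The summed level was 107.6 to 183 CPM in Chow and 111 to 190 in TM5614 for the 8 markers of endothelium, 225 to 408 and 352 to 603 for the 8 of stellate cells, 33.1 to 50.5 and 27.3 to 74.4 for the 6 of cholangiocytes, 2.19 to 5.21 and 2.05 to 5.50 for the 8 of lymphocytes, and 39.2 to 88.7 and 34.7 to 54.5 for the 6 erythroid markers, of which the 4 globin genes Hba-a1, Hba-a2, Hbb-bs and Hbb-bt are listed at 0 in every library. Des, 1 of the 8 stellate markers, was at 2.44 ± 1.29 CPM in Chow and 54.7 ± 113 in TM5614 (SD, n = 5 each). The stellate sum without Des, and the part of muscle RNA in it, were not tested. In Chow replicate 2, GC content and gene length accounted for 50.5% of the variance of its deviations from the gene medians over all 10 libraries. In the other 9 libraries the share was 0.738% to 13.1%. The part of these differences in the levels below was not tested. In bulk liver, fewer cells of a type and less RNA per cell cannot be told apart.

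All 8 members passed the filter on low counts. At an adjusted p under 0.05 in edgeR's quasi-likelihood test, 1 of the 8 was called, Gm15441, and 4.50% of all tested genes were called, 1.73% as higher and 2.77% as lower in TM5614. Since the members were chosen with this contrast in view, nothing is read from that count. Estimates were higher in TM5614 for Txnip, Gm15441 and Arrdc4 and lower for the other 5. Their median log2 fold change was -0.25, beside 0.01 over all tested genes.

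Gm15441 was at 3.40, 4.24, 3.76, 1.11 and 0.828 CPM in Chow replicates 1 to 5. It was at 16.4, 9.47, 17.1, 51.6 and 12.3 CPM in TM5614 replicates 1 to 5. Each TM5614 library lay above each Chow library, and the groups did not overlap, in either direction, for 8.93% of all tested genes. The means were 2.67 ± 1.58 CPM (SD, n = 5) in Chow and 21.4 ± 17.2 (SD, n = 5) in TM5614, and the log2 fold change was 2.98 with a standard error of 0.54. These levels rest on 7 to 44 counts in Chow and 73 to 452 in TM5614. TM5614 replicate 4 alone held 452 counts, and without it the log2 fold change was 2.35. Without TM5614 replicate 2, the library with the highest muscle markers, it was 3.15. The spread of Gm15441 within groups was at the 99.0 percentile of all tested genes.

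Txnip was at 79.7, 97.7, 139, 58.5 and 114 CPM in Chow replicates 1 to 5. In TM5614 replicates 1 to 5 it was at 146, 168, 174, 105 and 150 CPM. The groups overlapped, because Chow replicates 3 and 5 lay above TM5614 replicate 4, and 23 of the 25 pairs had the TM5614 library higher. Means were 97.7 ± 31.0 CPM (SD, n = 5) and 148 ± 27.2 (SD, n = 5), for a log2 fold change of 0.60 with a standard error of 0.21. Without a replicate block, Txnip was not called by edgeR, DESeq2 or limma-voom. Over all settings run, its log2 fold change stayed between 0.46 and 0.76.

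**Figure D2:**
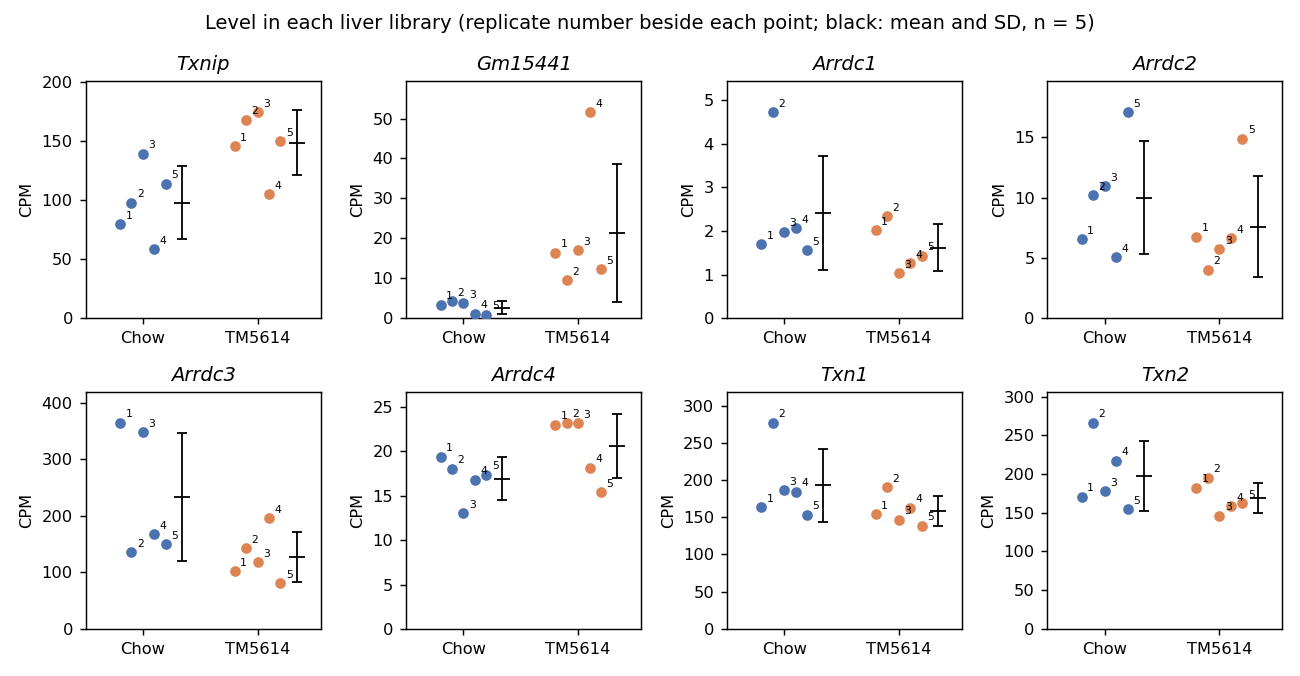
CPM of the 8 members in each of the 10 liver libraries (1 point each, with its replicate number), with the mean and SD of each group (n = 5) in black and every axis starting at 0. The groups are apart for Gm15441 and overlap for the other 7 members, and TM5614 replicate 4 holds the highest Gm15441 level and the lowest Txnip level of its group.

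Taken as a share of the counts of the pair, Gm15441 was a small part of the reads at the locus in Chow and a larger one in TM5614. The share was 4.09%, 4.16%, 2.63%, 1.86% and 0.722% in Chow replicates 1 to 5, and 10.1%, 5.35%, 8.93%, 33.0% and 7.60% in TM5614 replicates 1 to 5. The means were 2.69% ± 1.47 (SD, n = 5) and 13.0% ± 11.3 (SD, n = 5). The Wilson interval was 0.380% to 1.37% for the lowest share, Chow replicate 5, and 30.6% to 35.6% for the highest, TM5614 replicate 4, and it covers counting error only. Whether the counting used strand is not given in the sources used here, so reads of the shared exons cannot be assigned from the files.

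The counts of the pair can be set beside the size of the overlap. The shared bases make up 21.4% of the main Txnip transcript of 2827 bases, and that share of the Txnip counts would be 265 in Chow replicate 5 and 79.1 in Chow replicate 4, where Gm15441 held 9 and 7 counts. In 9 of the 10 libraries the Gm15441 count lay below that share, and in TM5614 replicate 4 it lay above, at 452 against 196. The gene length implied by the deposited FPKM for Gm15441 was 1675 bases, 99.9% of its annotated exons, so the shared bases were not taken out of its length.

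**Figure D3:**
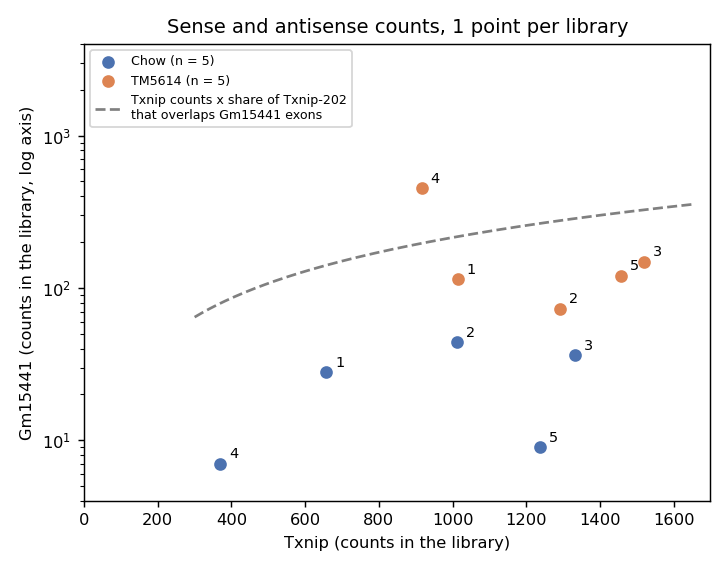
Gm15441 counts (log axis) against Txnip counts in each library, 1 point per library with its replicate number, and a dashed curve at the Txnip counts times the share of the main Txnip transcript that overlaps Gm15441 exons. TM5614 replicate 4, with 452 Gm15441 counts, is the 1 library above the curve, and Chow replicates 4 and 5 lie farthest below it, at 7 and 9 counts.

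Over both groups together, no relation between Txnip and Gm15441 was detected within groups. After each group's mean was removed from log2 CPM, Pearson's r over the 10 libraries was -0.12 (exact permutation within groups, two-sided p = 0.760, adjusted p = 0.961 over 28 pairs of members) and Spearman's rho was -0.10 (exact permutation p = 0.842, adjusted p = 0.977). Without the 2 libraries farthest from the median of Txnip, r was -0.17. The groups differed in which libraries stood out, since TM5614 replicate 4 held the highest Gm15441 and the lowest Txnip of its group, while Chow replicate 4 held the lowest Txnip with the second lowest Gm15441 of its group. The sign of the joint r rested on these libraries, with r at -0.54 without Chow replicate 4 and 0.27 without TM5614 replicate 4. A group of 5 libraries is too small for an r of its own, and both genes share the depth of each library.

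Arrdc4, the other glucose-responsive alpha-arrestin, was at 19.4, 18.0, 13.0, 16.8 and 17.4 CPM in Chow replicates 1 to 5 and at 23.0, 23.2, 23.2, 18.2 and 15.4 in TM5614 replicates 1 to 5. TM5614 replicates 1 to 3 lay above every Chow library, while replicates 4 and 5 lay within the Chow range. The means were 16.9 ± 2.38 CPM (SD, n = 5) and 20.6 ± 3.61 (SD, n = 5), for a log2 fold change of 0.28 with a standard error of 0.15. Within groups no relation with Txnip was detected, with r of -0.11 over the 10 libraries (exact permutation p = 0.773, adjusted p = 0.961), rho of 0.10 (exact permutation p = 0.842, adjusted p = 0.977) and r of -0.43 without the 2 farthest libraries.

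Arrdc3 is known as a regulator of beta-adrenergic receptors and had the largest lower estimate of the 8. It was at 365, 136, 348, 168 and 150 CPM in Chow replicates 1 to 5 and at 102, 143, 117, 195 and 80.7 in TM5614 replicates 1 to 5. The Chow libraries differed among themselves, with replicates 1 and 3 above all TM5614 libraries and the other 3 within the TM5614 range. The means were 233 ± 113 CPM (SD, n = 5) and 128 ± 44.2 (SD, n = 5), for a log2 fold change of -0.87 with a standard error of 0.32. Arrdc3 was called when Chow replicate 2 was left out, at a log2 fold change of -1.02, and under limma-voom and the correction for GC content and length, and in the main test it was not.

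Arrdc1 is known for its part in the budding of vesicles from the plasma membrane and had the lowest mean FPKM of the members in both groups, with 9 to 49 counts per library. Chow replicate 2 was at 4.73 CPM, and the other Chow libraries were at 1.56 to 2.06 and the TM5614 libraries at 1.03 to 2.34. Its log2 fold change was -0.60 with a standard error of 0.36, and -0.19 without Chow replicate 2. Arrdc2, an alpha-arrestin whose role is less well known, ranged from 5.07 to 17.1 CPM in Chow, with a median of 10.2, and from 4.02 to 14.9 in TM5614, with a median of 6.63. Replicate 5 was the highest of each group. Its log2 fold change of -0.40 with a standard error of 0.37 moved to -0.11 without Chow replicate 5 and to -0.80 without TM5614 replicate 5.

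Txn1, the thioredoxin of the cytosol and nucleus, was at 163, 277, 187, 184 and 153 CPM in Chow replicates 1 to 5 and at 154, 190, 147, 163 and 139 in TM5614 replicates 1 to 5. Txn2, the mitochondrial thioredoxin, was at 171, 266, 178, 217 and 154 CPM in Chow and at 182, 195, 146, 159 and 162 in TM5614, in the same order. For both, Chow replicate 2 was the highest of all libraries and the groups overlapped. The log2 fold changes were -0.28 with a standard error of 0.16 for Txn1 and -0.22 with a standard error of 0.15 for Txn2, and they were -0.12 and -0.10 without Chow replicate 2. With GC content and length taken out of each library, the Txn2 estimate was -0.02.

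**Figure D4:**
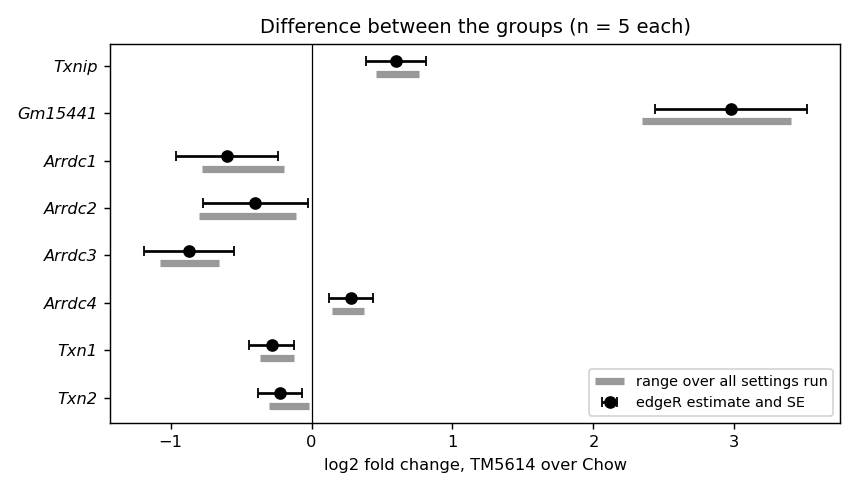
Log2 fold change of each member, TM5614 over Chow (n = 5 each), as the edgeR estimate with its standard error (black) and the range over all settings run, left-out libraries included (grey). No range crosses 0, and that of Txn2 reaches -0.02.

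Levels of different genes were compared per length, as the FPKM that the authors deposited, which is a measure the choice of members did not use within a library. The order of the Chow means was Txn1 at 181, Txn2 at 152, Arrdc3 at 56.4, Txnip at 34.5, Arrdc4 at 4.23, Arrdc2 at 4.20, Gm15441 at 1.58 and Arrdc1 at 1.34 FPKM. The TM5614 means in the same sequence of genes were 149, 130, 30.8, 52.2, 5.13, 3.20, 12.6 and 0.896 FPKM. On this scale the thioredoxins had the highest means of the set in both groups and Arrdc1 the lowest. In an exact two-sided sign-flip permutation test over the 10 libraries, adjusted over the 7 pairs of neighbours in that order, Txn1 lay above Txn2 by 0.22 ± 0.124 (SD, n = 10) on the log2 scale, in 10 of 10 libraries (adjusted p = 0.00456). Txn2 lay above Arrdc3 by 1.84 and Txnip above Arrdc4 by 3.16, each in 10 of 10 libraries and with the same adjusted exact p of 0.00456. The raw p of each was 0.00195, the smallest that 10 libraries allow. The test measures the spread between libraries and not the error of the gene lengths. Mean CPM of Txn1 and Txn2 was 193 and 197 in Chow, and 159 and 169 in TM5614. The order of these genes thus rests on the lengths behind the FPKM, 1052 and 1283 bases, and its p does not establish it.

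The remaining neighbours did not keep 1 order. Arrdc3 lay above Txnip in 3 of 5 Chow libraries and 1 of 5 TM5614 libraries. The mean difference was 0.64 in Chow and -0.81 in TM5614. The joint mean of -0.09 ± 1.02 (SD, n = 10) averages these opposite values, so no p is given for it. Arrdc4 lay above Arrdc2 in 7 of 10 libraries, by 0.47 ± 0.878 (SD, n = 10; exact permutation, adjusted p = 0.178). Arrdc2 lay above Gm15441 in 5 of 5 Chow libraries and 0 of 5 TM5614 libraries. Gm15441 lay above Arrdc1 in 2 of 5 Chow and 5 of 5 TM5614 libraries. These last pairs turn on the rise by which Gm15441 was chosen, so no p is given for them. The length behind the FPKM of Txn2 was 1283 bases against 4208 annotated exon bases, so the order was also computed from CPM per kb of annotated exons. There Txn1 lay above Txn2 by 1.94 in place of 0.22 on the log2 scale and Txn2 above Arrdc3 by 0.74 in place of 1.84. Arrdc4 lay above Arrdc2 by 0.90 in place of 0.47 and passed (exact permutation, adjusted p = 0.0273). In TM5614 the mean of Txnip, 47.5 CPM per kb, was then above that of Txn2, 40.1 CPM per kb, while in Chow they were 31.3 and 46.9.

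**Figure D5:**
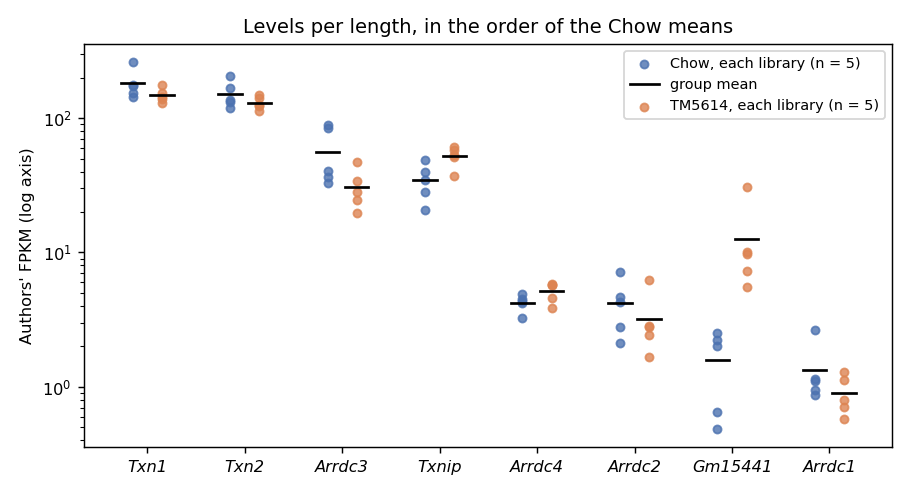
Deposited FPKM (log axis) of the 8 members in each library, blue for Chow and orange for TM5614 (n = 5 each), with the group means as black bars and genes in the order of the Chow means. The group means of Txn1 and Txn2 lie between 130 and 181, and Gm15441 is the 1 gene whose groups are apart.

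Over all 28 pairs of members, within-group r ranged from -0.58 to 0.93. The highest was that of Arrdc1 with Txn2, with r of 0.93 (exact permutation, adjusted p = 0.00194), rho of 1.00 (exact permutation, adjusted p = 0.00389) and r of 0.80 without the 2 farthest libraries, which were replicate 2 of both groups. Txn1 with Txn2 had r of 0.88 (exact permutation p = 0.00431, adjusted p = 0.0603), rho of 0.70 (exact permutation p = 0.0522, adjusted p = 0.487) and r of 0.60 without those libraries. Arrdc1 with Txn1 had r of 0.89 (exact permutation p = 0.00785, adjusted p = 0.0732), rho of 0.70 (exact permutation p = 0.0522, adjusted p = 0.487) and r of 0.39 without them. The relation of Arrdc1 with Txn1 thus rested on those libraries, of which Chow replicate 2 stood apart in GC content and length. Arrdc1 held only 9 to 49 counts per library. The part of counting error, and of GC content and length, in its r with Txn2 and Txn1 was not tested.

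The genes whose within-group pattern was most like Txnip, of 8591 genes with a mean of at least 50 counts, were Sptlc2 (r of 0.94 over 10 libraries), Tmem230 (0.92), Mprip (0.87), Gars (0.84), Bphl (0.84) and Tmem165 (0.84). None of these 6 was called between the groups by edgeR, and their log2 fold changes lay between -0.04 and 0.27. Among those most like Gm15441 were AU019823 (0.91), Mettl5 (0.89), Rcl1 (0.88), Acot1 (0.87) and P3h1 (0.87). Of these, Acot1, an acyl-CoA thioesterase of the PPAR-alpha programme, was the 1 called, at 29.9 ± 5.58 CPM in Chow and 123 ± 36.3 in TM5614 (SD, n = 5 each; log2 fold change 2.04, edgeR adjusted p = 0.000340). These r are the top values of a search over all candidates and carry no test.

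The genes around Txnip were examined next. Within 100 kb of Txnip, 16 other genes were annotated and 6 were tested. Of these edgeR called 0, with 1 at an unadjusted p under 0.05. DESeq2 and limma-voom also called 0. With 4.50% of all tested genes called by edgeR, nothing is read from 0 calls among these 6. Their log2 fold changes lay between -0.52 and 0.06 with a median of -0.10. The lowest was that of Polr3gl, a subunit of RNA polymerase III, at 14.1 ± 3.31 CPM in Chow and 9.84 ± 1.12 in TM5614 (SD, n = 5 each; edgeR adjusted p = 0.117).

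The gene lists that follow were drawn up with earlier results of these data known. Their counts and p-values describe the listed genes and are not independent evidence. Of all tested genes edgeR called 4.50%, with 1.73% higher and 2.77% lower in TM5614. The counts of each list below stand beside that share. Of 25 genes for thioredoxin reductases, peroxiredoxins, glutaredoxins and other partners of the thioredoxins, 1 rose, 1 fell and 23 did not pass. Their median log2 fold change was -0.08, beside 0.01 over all tested genes. Srxn1, sulfiredoxin, which repairs over-oxidised peroxiredoxins, rose from 46.7 ± 3.14 to 64.8 ± 2.62 CPM (SD, n = 5 each; log2 fold change 0.47 with a standard error of 0.09, edgeR adjusted p = 0.0124). Txnrd3, the thioredoxin-glutathione reductase, fell from 11.9 ± 1.10 to 7.88 ± 1.49 CPM (SD, n = 5 each; log2 fold change -0.60 with a standard error of 0.15, edgeR adjusted p = 0.0443). Txnrd1, the reductase of the cytosol, was at 125 ± 28.5 CPM in Chow and 145 ± 14.5 in TM5614 (SD, n = 5 each; edgeR adjusted p = 0.469).

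Among the partners and targets of alpha-arrestins, 16 of 18 genes were tested, 1 rose and 15 did not pass, and the median log2 fold change was 0.02. Arrdc5 was at 0 in every library. Nedd4l, a ubiquitin ligase of the Nedd4 family, rose from 29.4 ± 7.67 to 69.1 ± 14.4 CPM (SD, n = 5 each; log2 fold change 1.23 with a standard error of 0.20, edgeR adjusted p = 0.00406), and its groups did not overlap. Slc2a2, the main glucose transporter of hepatocytes, was at 333 ± 107 CPM in Chow and 220.5 ± 51.7 in TM5614 (SD, n = 5 each; edgeR adjusted p = 0.203).

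The MLX factors and glucose-responsive genes of liver went in both directions. Of 22 tested, 2 rose, 5 fell and 15 did not pass, with a median log2 fold change of -0.33. G6pc, the glucose-6-phosphatase that releases glucose, rose from 188 ± 50.7 to 571 ± 147 CPM (SD, n = 5 each, log2 fold change 1.60, edgeR adjusted p = 0.00185). The other rise was that of Fgf21, a hormone, with a log2 fold change of 3.04 (edgeR adjusted p = 0.000136). Fgf21 is counted again among the PPAR-alpha targets below. The largest falls were those of the lipogenic genes Thrsp, with a log2 fold change of -2.55 (edgeR adjusted p = 0.000720), and Fasn, fatty acid synthase, with -1.37 (edgeR adjusted p = 0.00391), of Rgs16, a regulator of G protein signalling, with -2.37 (edgeR adjusted p = 0.0245), and of Khk, fructokinase, with -1.14 (edgeR adjusted p = 0.0404). The factors themselves were not called, with log2 fold changes of 0.22 for Mlx, 0.05 for Mlxip and -0.28 for Mlxipl (edgeR adjusted p = 0.256, 0.910 and 0.307).

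Of the 20 FoxO and glucocorticoid responsive genes, 1 rose (G6pc, which also stands among the glucose-responsive genes), 1 fell and 18 did not pass, with a median log2 fold change of 0.02. The gene that fell was Per1, a clock gene, with a log2 fold change of -0.75 (edgeR adjusted p = 0.0304). Of the 23 genes of PPAR-alpha and its targets, 10 rose, 1 fell and 12 did not pass, with a median of 0.53. Since this list too was chosen with results known, its count is not separate evidence beside the rise of Gm15441. The largest estimates among the rises were those of Pdk4, a pyruvate dehydrogenase kinase, the hormone Fgf21, the peroxisomal enzyme Ehhadh and Acot1. Pdk4 went from 3.94 ± 1.63 to 47.1 ± 55.6 CPM (SD, n = 5 each; log2 fold change 3.56 with a standard error of 0.69, edgeR adjusted p = 0.0122). TM5614 replicate 2, the library with 4050 CPM of muscle markers, held Pdk4 at 144 CPM, while the rest of its group lay between 12.6 and 40.3, and without it the log2 fold change was 2.51, below that of Fgf21; the part of the muscle RNA was not tested. Fgf21 rose with a log2 fold change of 3.04 and a standard error of 0.24, and Ehhadh with 2.31 and a standard error of 0.28 (edgeR adjusted p = 0.000136 and 0.000889). Acot3 fell from 122 ± 38.5 to 61.0 ± 12.7 CPM (SD, n = 5 each; edgeR adjusted p = 0.0349). The Acot genes are close copies of each other, and how their reads were assigned was not tested, so their values are uncertain. Of the 11 NLRP3 inflammasome genes, 6 passed the filter and Il18, a cytokine that the inflammasome matures, fell from 11.5 ± 1.09 to 7.63 ± 1.18 CPM (SD, n = 5 each; log2 fold change -0.59, edgeR adjusted p = 0.0386). Nlrp3, Pycard, Casp1, Casp4 and Il1b had too few counts to be tested. Several of these calls rested on the full set of libraries. Leaving out 1 of the 10 libraries at a time lost the call of Txnrd3 and of Acot3 in 8 cases. It lost that of Per1 and Il18 in 7, of Khk in 6 and of Rgs16 in 4. None was lost for Srxn1, Nedd4l, G6pc, Thrsp, Fasn, Pdk4, Fgf21, Ehhadh or Acot1. Among the other PPAR-alpha rises, Acadl lost its call in 8 cases and Cpt2 in 7, while Cyp4a10, Cyp4a14, Plin2 and Acot2 lost none.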

How the data were processed

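Hepatic poly(A) RNA of 10 mice was sequenced as single-end reads and, per the study's methods and the submitters' processing notes, aligned with STAR to mm10 through the RNA Express application; HOMER and DESeq2 are also named. Tool versions, the gene annotation and whether strand was used are not given in the sources used here. The authors deposited raw counts per gene symbol, FPKM values (counts per length, scaled between libraries) and regularised log2 values, in which DESeq2 shrinks each gene towards its mean. The authors' own comparison table (fold changes and p-values) was not used. Groups and replicate numbers came from the sample titles, and columns were matched by mouse number. Strain and age are those of the labels; the study's methods give the strain as C57BL/6J and a slightly younger age.

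Genes were kept with filterByExpr, scaled with TMM and tested in R 4.3.3 with the two-sided quasi-likelihood test of edgeR 4.0.16 without a block. P-values were adjusted by Benjamini-Hochberg over the 11092 genes and called under 0.05. A standard error is the size of the log2 fold change divided by the root of its F value. CPM used TMM factors, and correlations used log2 CPM with a prior count of 2. The order of levels used log2(FPKM + 0.01). The members and gene lists were chosen with earlier results of these data known. No p is therefore given for a member between groups, and the p-values of listed genes are descriptive. The named genes were the members, of each list the genes past the threshold (at most 4 in each direction by size, with other listed genes given for context after their values were seen), and the 6 genes most like Txnip or Gm15441, of which 1 is not reported here. Coordinates came from GENCODE M21 on GRCm38, matched by symbol, and promoters from RefSeq on GRCm38.p6. No 2 libraries of a group agreed within sampling noise (lowest chi-square per degree of freedom 7.98). Nothing in the labels gives a batch, and the p-values measure the spread between mice of 1 experiment.

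The alternatives were DESeq2 1.42.0, limma-voom (limma 3.58.1) with sample quality weights, RLE factors, library totals, 2 other filters, the replicate number as a block, GC content and length as splines with 5 degrees of freedom, an adjusted p of 0.01, other pseudocounts and lengths, and libraries left out. The within-group permutation tests, and leaving out replicate 2 of both groups for the correlations, were added after seeing the data. On simulated counts of 11009 genes with 200 changed, edgeR recovered 62% of genes changed 2-fold and 96% of those changed 4-fold, and 5.39% of 167 calls were false. The shares for DESeq2 were 71% and 97%, with 14.3% of 196 calls false, and limma-voom 62% and 96%, with 4.24% of 165 calls false. Whether these shares hold with libraries as uneven as replicate 2 of both groups was not tested.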

Additional observations from a re-analysis of the deposited data

Results flagged for a closer look

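The 20 sets of 5 libraries examined were, in each group, the 8 members, the antisense share and the total counts. In 5 of them the gap of 1 library to its nearest, over the range of the group, exceeded Dixon's critical value of 0.71. Chance gives about 1 in 20 only for independent sets of normally spread values. These sets were CPM, percentages and counts without logs, and Gm15441 and its share rest on the same counts. The 5 are therefore not set against that 1, and ratios on the log2 scale were not tested. TM5614 replicate 4 held Gm15441 at 51.6 CPM, with the other TM5614 libraries at 9.47 to 17.1 CPM. In the same library Gm15441 made up 33.0% of the counts of Gm15441 and Txnip, with the others at 5.35% to 10.1%. Chow replicate 2 held Arrdc1 at 4.73 CPM, with the other Chow libraries at 1.56 to 2.06, and Txn1 at 277 CPM, with the others at 153 to 187. TM5614 replicate 5 held Arrdc2 at 14.9 CPM, with the others at 4.02 to 6.75.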

How the results depend on the processing

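The direction of each member's estimate was the same under every alternative run. Gm15441 was called wherever it was tested. Neither it nor Arrdc1 was tested when at least 10 counts were asked of every library, which left 0 members called. All settings reuse the same libraries and the contrast by which the members were chosen. Nothing is therefore read from the calls of members, here or above, as evidence of a difference. The number of members called was 2 under limma-voom, the GC and length correction and without replicate 2 of both groups (Gm15441 and Arrdc3 each time), and 1 to 2 with 1 library left out, the higher number without Chow replicate 2. All genes called numbered 499 in the main test (192 higher, 307 lower), 900 with DESeq2, 1386 with limma-voom, 775 with the GC and length correction, 1230 without replicate 2 of both groups, 184 at an adjusted p of 0.01, and 235 (without TM5614 replicate 3) to 1031 (without Chow replicate 2) with 1 library left out; the numbers were 293 without Chow replicate 3, 331 without TM5614 replicate 1 and 259 without TM5614 replicate 4. The cause of these differences was not tested.

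Of the thioredoxin partners 2 were called in the main test, 4 with limma-voom, 1 with no filter, 4 without replicate 2 of both groups and 1 to 4 with 1 library left out. Of the arrestin partners 1 was called, 2 with DESeq2, 3 with limma-voom, 2 with the GC and length correction, 3 without replicate 2 of both groups and 1 to 3 with 1 library left out. Of the MLX and glucose-responsive genes 7 were called, 11 with limma-voom and 4 to 10 with 1 library left out. Of the FoxO and glucocorticoid responsive genes 2 were called, 4 with DESeq2, 7 with limma-voom, 5 without replicate 2 of both groups and 1 to 5 with 1 library left out. Of the PPAR-alpha genes 11 were called, 17 with limma-voom, 19 without replicate 2 of both groups and 8 to 14 with 1 library left out. Of the NLRP3 inflammasome genes 1 was called, 2 with DESeq2, 2 with limma-voom, 0 with no filter and 0 to 2 with 1 library left out. In the order of levels 3 pairs without Gm15441 passed. A further pair, Gm15441 over Arrdc1, is not counted as a result, because it turns on the rise by which Gm15441 was chosen. With it, the number was 4 of 7, 3 to 4 with 1 library left out, 5 with annotated lengths, and 0 in the Chow libraries alone and 0 in the TM5614 libraries alone, where the smallest possible p of 5 libraries is 0.0625. The within-group r of Txnip and Gm15441 lay between -0.54 and 0.27 with 1 library left out.

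The replicate numbers name different mice. Deviations of same-numbered libraries correlated at 0.0316, 0.318, 0.124, 0.0323 and 0.250, so the numbers were not taken to pair the samples. With the replicate number as a block, 555 genes and 2 members were called (Gm15441 and Txnip), 1 thioredoxin partner and 6 FoxO and glucocorticoid responsive genes.

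Depth limited Arrdc1 (9 to 49 counts) and Gm15441 in Chow (7 to 44 counts) most. PCR copies of a molecule cannot be told from separate molecules here, so the intervals hold for counting error alone.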

Other observations

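The letters of the carbohydrate response element stood in the promoters of 14 other genes by symbol. Of these 8 were tested, and edgeR called 0 between the groups, with 1 at an unadjusted p under 0.05. DESeq2 and limma-voom also called 0. With 4.50% of all tested genes called by edgeR, nothing is read from 0 calls among these 8. Their log2 fold changes lay between -0.25 and 0.33, with a median of 0.02. This search was added after seeing the data.

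Gm15441 and Arrdc3 had a within-group r of 0.54 over the 10 libraries (exact permutation p = 0.140, adjusted p = 0.786 over the 28 pairs) and a rho of 0.15 (exact permutation p = 0.735, adjusted p = 0.977). Without the 2 libraries farthest from the median of Gm15441 r was 0.18, and without replicate 2 of both groups it was 0.98 over 8 libraries. This pair was picked after its values were seen. TM5614 replicate 4 held the highest level of both genes in its group, at 51.6 CPM for Gm15441 and 195 CPM for Arrdc3.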
